A study of Mus musculus with 20 samples.

Results

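Ephrins, their Eph receptors, semaphorins, and the plexins and neuropilins that receive semaphorins were followed in 3 pooled single-cell experiments on mouse embryonic stem cells (mESCs). The genes were taken by symbol: 9 EphA and 5 EphB receptors, 5 ephrin-As and 3 ephrin-Bs, 7 class 3 semaphorins, 13 semaphorins of classes 4 to 7, 9 plexins and 2 neuropilins. These 53 genes stand among 27998 genes in each experiment. The labels name a male line of the 129P2/OlaHsd strain. All cells counted here had been taken off GSK3 inhibitor XV and UO126, moved through serum-free and then low-serum differentiation medium, and transfected with barcodelets 2 to 16 h before harvest. Barcodelets are short RNAs, mixed from a few species per well, that mark the well a cell came from, so that cells of many treatments can be read in a single droplet library.

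In the germ layer experiment each cell received 5 signals for 24 h, each as an agonist (plus) or an inhibitor (minus), in all 32 combinations. RA plus was retinoic acid and RA minus was CD 2665, an antagonist of retinoic acid receptors. Wnt plus was GSK3 inhibitor XV, which activates Wnt signalling, and Wnt minus was IWR1, which blocks it. Tgfb plus was Activin A and Tgfb minus was A8301. Bmp plus was Bmp4 and Bmp minus was Dorsomorphin, and Fgf plus was Fgf2 and Fgf minus was UO126, a MEK inhibitor. The mixed experiment gave the same 5 signals to cells from a mesendoderm start and to cells from an undirected start. Cells of the mesendoderm start first spent 24 h in Fgf2, Activin A and GSK3 inhibitor XV with Dorsomorphin and CD 2665. That experiment also held 8 control wells per start, which had no combined treatment. In the mesendoderm experiment all cells had the mesendoderm start and received 7 signals, the same 5 plus Notch and Sonic hedgehog (Shh). For the mixed and mesendoderm experiments the design tables give each signal as plus or minus without naming its compound.

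Eph receptors and ephrins are both membrane-bound and signal at cell contacts: the receptor signals into its own cell, and the ephrin can signal back into the cell that carries it. Most semaphorins of class 3 are secreted and act through a neuropilin, which binds the ligand, and a plexin, which carries the signal inside. Semaphorins of classes 4 to 7 are mostly membrane-bound and bind plexins directly. Both systems steer growing axons, and in the early embryo they are known for keeping neighbouring tissues apart and guiding migrating cells, as in hindbrain segments, somites and neural crest.

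The bases upstream of a start site are shown for the 2 ephrin-A genes and the receptor with the largest Bmp responses below, and for Nrp1, whose RA response had opposite signs in a pair of experiments. Each is the 250 bases before a RefSeq start (GRCm38.p6), read 5′ to 3′ on the gene's own strand, and none of these bases lies in an exon of GENCODE vM21. Capitals mark a match on either strand to 1 of 3 motifs of 6 letters: the nuclear receptor motif AGGTCA, the Tcf/Lef core CTTTGA or the GC-rich Smad motif GGCGCC.
Efna1, chr3:89279646-89279895, minus strand: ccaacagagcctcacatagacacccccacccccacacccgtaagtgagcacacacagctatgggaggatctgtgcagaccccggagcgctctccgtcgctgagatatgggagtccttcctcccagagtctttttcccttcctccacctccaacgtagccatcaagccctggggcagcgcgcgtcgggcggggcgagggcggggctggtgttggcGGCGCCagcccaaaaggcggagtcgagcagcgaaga
Efna5, chr17:62881318-62881567, minus strand: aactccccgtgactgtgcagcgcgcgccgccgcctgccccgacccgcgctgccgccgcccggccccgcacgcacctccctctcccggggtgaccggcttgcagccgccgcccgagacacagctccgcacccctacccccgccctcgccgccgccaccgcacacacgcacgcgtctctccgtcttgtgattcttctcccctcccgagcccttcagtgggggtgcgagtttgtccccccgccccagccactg
Epha7, chr4:28812881-28813130, plus strand: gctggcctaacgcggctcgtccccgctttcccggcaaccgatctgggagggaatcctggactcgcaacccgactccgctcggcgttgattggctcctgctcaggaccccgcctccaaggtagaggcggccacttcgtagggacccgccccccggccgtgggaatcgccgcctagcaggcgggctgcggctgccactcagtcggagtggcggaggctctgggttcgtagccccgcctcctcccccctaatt
Nrp1, chr8:128358823-128359072, plus strand: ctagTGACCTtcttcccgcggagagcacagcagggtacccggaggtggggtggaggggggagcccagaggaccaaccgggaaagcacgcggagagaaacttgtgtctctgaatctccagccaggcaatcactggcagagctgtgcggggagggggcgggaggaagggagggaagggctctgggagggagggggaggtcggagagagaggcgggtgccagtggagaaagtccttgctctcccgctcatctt
The Efna1 window holds GGCGCC once, which reads the same on both strands and occurs in 9.59% of the 32851 upstream windows of all genes. That window precedes a start inside the Efna1 gene. A second RefSeq start of Efna1 has the window chr3:89280952-89281201, which overlaps an exon and holds none of the 3 motifs. The Nrp1 window holds AGGTCA once, on the opposite strand as TGACCT, and 14.0% of all windows hold it. This window, too, precedes a start inside its gene, which begins at base 128358604. Efna5 and Epha7 hold none of the 3 motifs in these windows, and CTTTGA, which none of the 4 windows holds, occurs in 13.8% of all windows. The 3 motifs share no letters of a match in these windows. A match is a description of the letters, not a binding site.

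The cells that the deposited assignments passed numbered 4350 (germ layer), 2899 (mesendoderm) and 4869 (mixed), with medians of 15314, 11700 and 19105 UMIs (counted molecules) per cell. UMI counts of passed cells were summed per population, which is a condition in the germ layer experiment and a well in the others. Germ layer populations held 70 to 230 cells and 991630 to 3816595 UMIs. Fitted mixed wells held 5 to 97 cells and 101140 to 2119355 UMIs, and fitted mesendoderm wells held 5 to 29 cells and 27701 to 332644 UMIs. Among all deposited cells, passed or not, the experiments shared 151 (germ layer and mesendoderm), 64 (germ layer and mixed) and 111 (mesendoderm and mixed) cell barcodes. In the germ layer experiment each condition is 1 population, so the spread behind its tests is that of 32 conditions around an additive model. Nothing in the labels says that wells came from separate cultures, so p-values measure the spread between these populations.

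The 7 pluripotency markers were all detected, and 5 of them fell with RA, 5 with Wnt and 7 with Bmp in the germ layer experiment, while 5 rose and 1 fell with Tgfb. Their summed level ran from 409 to 1629 CPM (a gene's UMIs scaled to a common library size, here with TMM factors) with Bmp plus, against 648 to 1959 CPM with Bmp minus. It ran from 698 to 1959 CPM with Tgfb plus, against 409 to 1575 CPM with Tgfb minus. With Bmp the 3 tested neural crest markers all rose and 4 of 5 tested neural ectoderm markers fell, and with RA 3 of those 5 rose. Endothelial markers summed to between 3.27 and 18.6 CPM in every germ layer condition, with 1 of the 7 at 0. Mixed wells had 5 of the 7 pluripotency markers falling with RA, 6 with Wnt and 4 with Bmp from the mesendoderm start, while 6 rose with Tgfb. These markers thus moved with the pathways, and their part in the changes below was not tested. Population size did too: the median was 171 cells with RA plus against 108.5 with RA minus in the germ layer experiment, and 14.0 with Wnt plus against 30.5 with Wnt minus from the undirected start. Its part was not tested either. Since counts were summed, fewer cells that express a gene and less RNA per cell cannot be told apart.

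Guidance transcripts made up 570 unscaled CPM (gene UMIs over all UMIs, pooled over the experiment) in the germ layer experiment, against 503 (mesendoderm) and 457 (mixed). Efnb1, an ephrin-B, was the most abundant member in the germ layer experiment, at 73.7 unscaled CPM, with 38.5 (mesendoderm) and 40.5 (mixed) in the others. Nrp2, a neuropilin, was the most abundant in the mesendoderm (68.6) and mixed (48.5) experiments, with 34.6 in the germ layer experiment. Efna4, an ephrin-A, stood at 47.7, 50.0 and 36.7. Each value is a share of counted molecules and was not divided by gene length. The EphA receptor with the highest mean CPM over populations was Epha1 in the germ layer experiment (26.6 CPM) and Epha4 in the mesendoderm (24.0 CPM) and mixed (28.7 CPM) experiments. Among EphB receptors it was Ephb4 in the germ layer (11.6 CPM) and mesendoderm (16.6 CPM) and Ephb2 in the mixed experiment (15.1 CPM). Plxna1 was the highest plexin in all 3 (24.2, 25.4 and 28.5 CPM) and Sema3e the highest class 3 semaphorin in all 3 (22.9, 6.87 and 9.65 CPM). Sema6a was the highest of the other semaphorins in the germ layer (30.8 CPM) and mesendoderm experiments (20.3 CPM), and Sema4b in the mixed experiment (17.2 CPM).

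Many members were too low to test. After the filter on low counts, 28 of the 53 were tested in the germ layer experiment and 23 in the mixed experiment. The mesendoderm wells, with few cells each, left 1 member, Nrp2, and summing the wells of each of the 128 treatments (a median of 21 cells) left 6. Epha3, Epha6, Epha8 and Epha10 each had no more than 1.00 unscaled CPM in all 3 experiments, and Plxnb3 was at 0 in all of them. Plxnd1, the receptor that Sema3e binds without a neuropilin, stood at 0.515, 1.17 and 0.553 unscaled CPM. A member that passed the filter only through the conditions where it is high had to differ, so counts of called members are set beside the share called among all genes.

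In the germ layer experiment, of the 28 tested members, 6 rose and 4 fell with RA, where 27.7% of the 10614 genes tested were called in either direction (edgeR quasi-likelihood test, adjusted p under 0.05). With Wnt 5 rose and 5 fell (23.9% of all genes), with Tgfb 3 rose and 2 fell (7.02%), with Bmp 5 rose and 5 fell (43.1%), and with Fgf 2 rose and 2 fell (7.93%). The share of members called was 35.7% with RA, Wnt and Bmp, 17.9% with Tgfb and 14.3% with Fgf. Neither direction led: the median log2 change of the members lay between -0.07 (Wnt and Tgfb) and 0.15 (RA), against -0.0087 to 0.0037 over all genes. For every called member the ranges of CPM at the plus and minus levels overlapped; each level holds 16 conditions that differ in the other 4 signals.

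**Figure D1:**
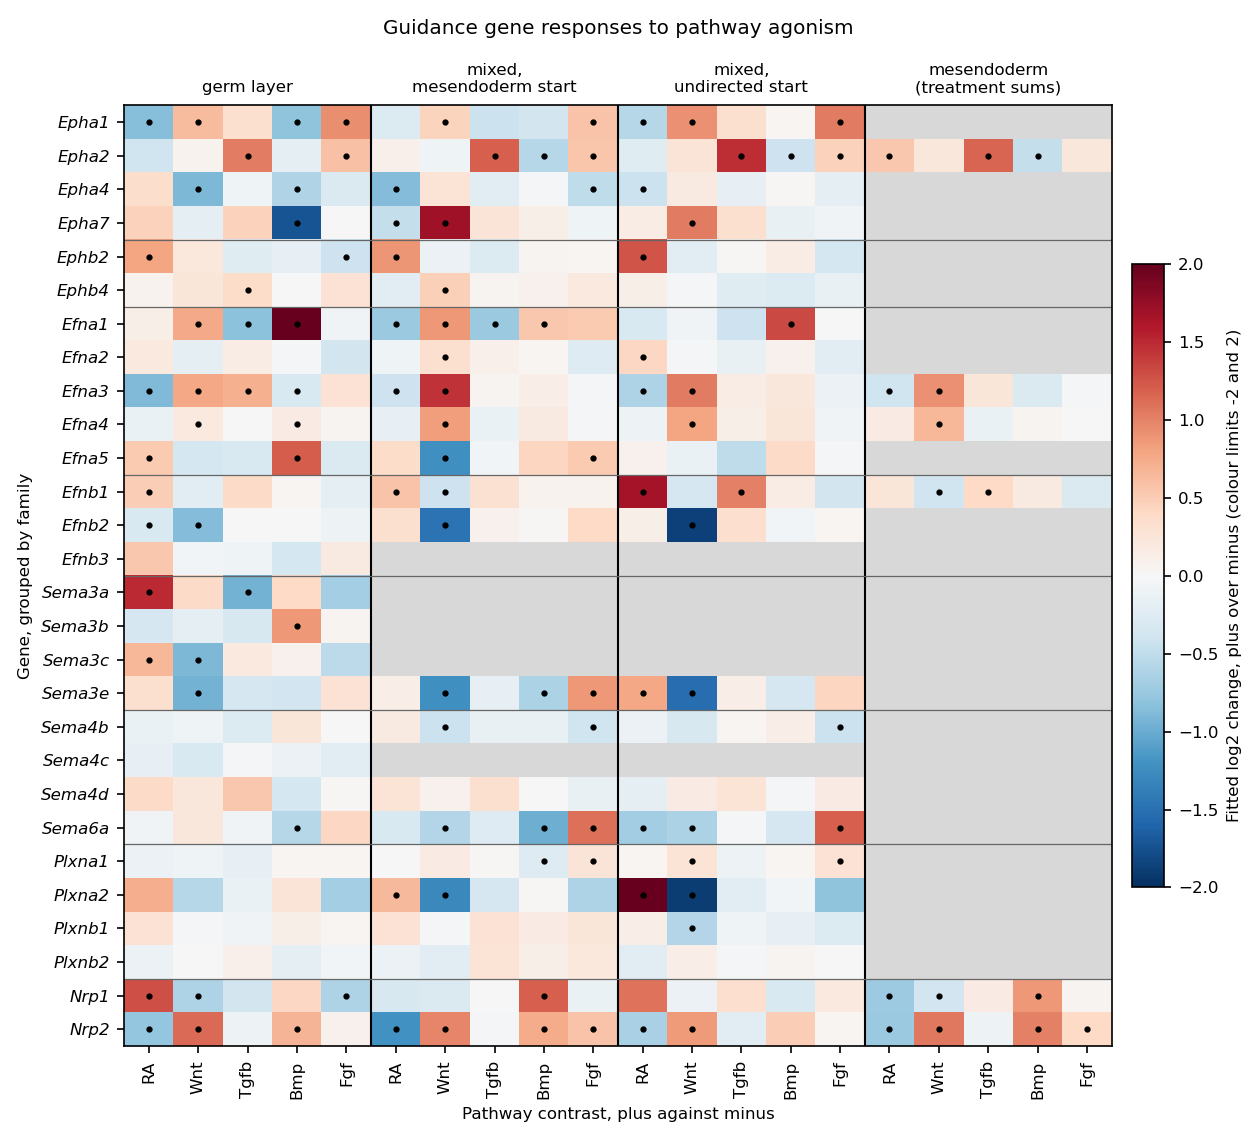
Fitted log2 changes, plus over minus, of the members tested in the germ layer experiment (rows, grouped by family) in each pathway contrast (columns) of the germ layer experiment, of each start of the mixed experiment and of the mesendoderm experiment with wells summed per treatment. Red is higher and blue lower with plus, a dot marks an adjusted p under 0.05, and grey cells were not tested. Epha2 is red under Tgfb and Efna3 red under Wnt in all 4 blocks, and Nrp2 is red under Wnt and blue under RA in all 4.

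The mixed experiment tested 23 of these members in each start. From the mesendoderm start 3 rose and 5 fell with RA (30.0% of the 8791 genes tested were called), 8 rose and 7 fell with Wnt (41.1%), 1 rose and 1 fell with Tgfb (6.96%), 3 rose and 4 fell with Bmp (10.7%), and 7 rose and 2 fell with Fgf (13.6%). From the undirected start 5 rose and 5 fell with RA (34.3%), 6 rose and 5 fell with Wnt (36.1%), 2 rose with Tgfb (4.14%), 1 rose and 1 fell with Bmp (7.81%), and 4 rose and 1 fell with Fgf (13.3%). The ranges of plus and minus wells overlapped for every called member. Members' median log2 changes lay between -0.08 and 0.19, against -0.0145 to 0.0106 over all genes. The mesendoderm experiment with wells summed tested 6 members and called 4 with RA (16.4% of all genes), 5 with Wnt (33.0%), 2 with Tgfb (7.38%), 3 with Bmp (21.1%) and 1 with Fgf (5.22%). For Notch and Shh edgeR called 0 of the 6, where 0.693% and 0.0433% of all genes were called, and at an unadjusted p under 0.05 it was 0 and 1 (Efna3). DESeq2, run on wells, called their single tested member, Nrp2, under neither.

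The Eph receptors responded to different signals. Epha2, a receptor of ephrin-As, followed Tgfb in every experiment. Across germ layer conditions it had 10.3, 19.97 and 41.9 CPM (lowest, median and highest of 16 conditions) with Tgfb plus, against 2.39, 10.5 and 20.998 CPM with Tgfb minus. Its log2 change was 1.03 ± 0.16 (SE, edgeR adjusted p = 2.54e-05). Mixed wells of the mesendoderm start averaged 40.4 ± 12.4 CPM with Tgfb plus and 17.5 ± 9.38 CPM with Tgfb minus (SD, n = 32 wells each), and the log2 change was 1.20 (edgeR adjusted p = 1.42e-20). From the undirected start it was 1.48 (edgeR adjusted p = 1.23e-16), and in the summed mesendoderm treatments 1.17 (edgeR adjusted p = 1.7e-12). Epha2 also rose with Fgf, by a log2 change of 0.59 in the germ layer experiment, 0.55 from the mesendoderm start and 0.46 from the undirected start. With Bmp it fell in the mixed and mesendoderm experiments, by 0.58 (mesendoderm start), 0.42 (undirected start) and 0.48 (summed treatments) on the log2 scale. With pair products in the model the calls from the undirected start were lost for Fgf (adjusted p = 0.0617) and Bmp (adjusted p = 0.161).

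Epha1, another receptor of ephrin-As, was called under 4 signals. It had 7.97, 26.6 and 72.4 CPM with Fgf plus, against 6.82, 13.8 and 55.0 CPM with Fgf minus in the germ layer experiment, with a log2 change of 0.93 ± 0.20 (SE, edgeR adjusted p = 0.0025). It rose with Wnt by 0.63, a call lost with DESeq2 (adjusted p = 0.0681), and fell with RA by 0.85 and with Bmp by 0.81 on the log2 scale. Its Fgf change was 0.57 from the mesendoderm start and 1.03 from the undirected start, and its Wnt change 0.44 and 0.92, all called. Exons of Epha1 overlap those of Zyx on the opposite strand, and no source used here states a strand setting for the counting.

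Epha7, a receptor known from closure of the neural tube, had 1.09, 2.88 and 14.6 CPM with Bmp plus, against 2.53, 10.8 and 29.7 CPM with Bmp minus in the germ layer experiment. The log2 change was -1.72 ± 0.28 (SE, edgeR adjusted p = 6.22e-06), although a few conditions of each level fall among those of the other. In the mixed experiment no Bmp change of Epha7 was called in either start. There Epha7 rose with Wnt, to 19.6 ± 9.80 CPM with Wnt plus against 6.04 ± 3.86 CPM with Wnt minus from the mesendoderm start (SD, n = 32 wells each), a log2 change of 1.70 (edgeR adjusted p = 5.57e-19). From the undirected start the Wnt change was 1.04 (edgeR adjusted p = 0.000709).

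Epha4, which binds ephrins of both classes, had 8.74, 15.2 and 32.1 CPM with Wnt plus, against 13.6, 27.2 and 65.8 CPM with Wnt minus in the germ layer experiment. The log2 change was -0.90 ± 0.15 (SE, edgeR adjusted p = 3.36e-05), and with Bmp it was -0.60. Its Wnt change was called in neither start of the mixed experiment. Instead Epha4 averaged 21.97 ± 9.80 CPM with RA plus and 41.7 ± 17.6 CPM with RA minus from the mesendoderm start (SD, n = 32 wells each), and fell by 0.87 on the log2 scale.

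Ephb2, a receptor of ephrin-Bs, rose with RA wherever it was tested. It had 9.06, 12.7 and 17.9 CPM with RA plus, against 4.21, 7.34 and 12.7 CPM with RA minus in the germ layer experiment, with a log2 change of 0.79 ± 0.11 (SE, edgeR adjusted p = 8.6e-07). The RA change was 0.88 from the mesendoderm start and 1.26 from the undirected start. With Fgf it fell in the germ layer experiment by 0.41 on the log2 scale. Ephb4, the receptor of ephrin-B2 in veins, rose with Tgfb in the germ layer experiment by a log2 change of 0.37 and with Wnt from the mesendoderm start by 0.48. Exons of Ephb4 overlap the gene Zan on the other strand.

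**Figure D2:**
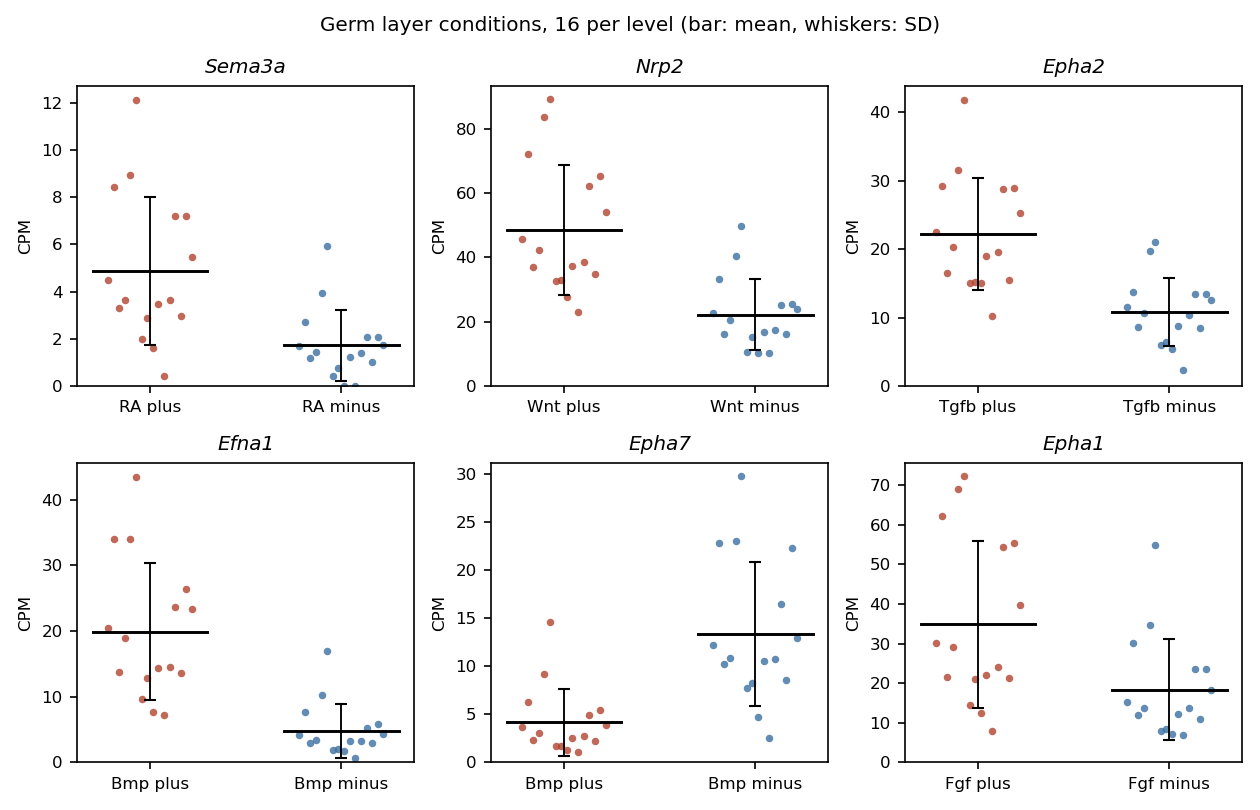
CPM in each of the 32 germ layer conditions, split by the level of a single pathway (16 conditions per level, plus in red at the left of each panel, minus in blue), for 6 members with large changes. Bars are means and whiskers SDs; Efna1 averages 19.9 CPM with Bmp plus and 4.78 CPM with Bmp minus, and Epha7 4.17 and 13.3 CPM.

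The genes of 3 ephrin-As lie side by side on chromosome 3 of GRCm38: Efna1 at 89271733 to 89281142, Efna3 at 89313899 to 89322965 and Efna4 at 89333390 to 89338028, all on the minus strand. All 3 rose with Wnt in the germ layer experiment and from the mesendoderm start, but their other responses differed. Efna1 had 7.28, 16.7 and 43.5 CPM with Bmp plus, against 0.702, 3.28 and 17.01 CPM with Bmp minus. This log2 change of 2.06 ± 0.22 (SE, edgeR adjusted p = 2.68e-09) was the largest of any member in the germ layer pathway comparisons. Efna1 also rose with Bmp in the mixed experiment, by a log2 change of 0.54 from the mesendoderm start and 1.32 from the undirected start. With Tgfb it fell, by 0.83 in the germ layer experiment and 0.74 from the mesendoderm start on the log2 scale.

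Efna3 had 8.07, 22.8 and 71.8 CPM with Wnt plus, against 6.05, 14.3 and 31.4 CPM with Wnt minus in the germ layer experiment, a log2 change of 0.78 ± 0.13 (SE, edgeR adjusted p = 1.54e-05). It averaged 28.0 ± 7.89 CPM with Wnt plus and 10.98 ± 5.98 CPM with Wnt minus from the mesendoderm start (SD, n = 32 wells each), a change of 1.44. The Wnt change of Efna3 was 1.05 from the undirected start and 0.91 in the summed mesendoderm treatments. Efna3 fell with RA in all 4 comparisons, by 0.88 (germ layer), 0.42 (mesendoderm start), 0.62 (undirected start) and 0.39 (summed treatments) on the log2 scale. Among germ layer conditions it also rose with Tgfb, by 0.715, and fell with Bmp, by 0.31. That Bmp call was lost under 4 alternatives: with DESeq2 (adjusted p = 0.0611), with no filter on low counts (0.0701), with pair products in the model (0.0524) and without the condition described with Epha5 (0.0776). Efna4 rose with Wnt by 0.20 in the germ layer experiment, 0.84 from the mesendoderm start, 0.79 from the undirected start and 0.66 in the summed treatments. Exons of Efna3 and Efna4 overlap Gm15998 and 4731419I09Rik on the other strand, so that their counts could include reads of those genes.

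Efna5, an ephrin-A on chromosome 17 known for mapping retinal axons, had 20.6, 57.7 and 88.1 CPM with Bmp plus, against 15.6, 20.95 and 35.3 CPM with Bmp minus in the germ layer experiment. The log2 change was 1.21 ± 0.14 (SE, edgeR adjusted p = 8.15e-09). Efna5 rose with RA as well, by 0.53, and was called with Bmp or RA in neither start of the mixed experiment. From the mesendoderm start it averaged 8.74 ± 5.32 CPM with Wnt plus and 20.1 ± 10.1 CPM with Wnt minus (SD, n = 32 wells each), and fell by 1.23 on the log2 scale. Efna2 was called in the mixed experiment and not in the germ layer experiment: it rose with Wnt from the mesendoderm start (0.33) and with RA from the undirected start (0.42, but adjusted p = 0.0684 with pair products in the model).

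The ephrin-Bs span the membrane and can signal inward themselves. Efnb1, an X-linked gene whose loss in humans causes a craniofacial syndrome, had 35.0, 72.3 and 163 CPM with RA plus, against 28.8, 52.2 and 103 CPM with RA minus in the germ layer experiment. Its log2 change of 0.50 ± 0.18 (SE, edgeR adjusted p = 0.038) became 0.48 (adjusted p = 0.0526) without the condition RA+ Wnt+ Tgfb- Bmp- Fgf+, which is described with Epha5. In the mixed experiment it averaged 54.8 ± 33.8 CPM with RA plus (n = 30 wells) and 18.5 ± 13.7 CPM with RA minus (n = 32 wells) from the undirected start, a log2 change of 1.66 (edgeR adjusted p = 3.43e-14). The RA change was 0.57 from the mesendoderm start. Efnb1 also rose with Tgfb from the undirected start (1.00) and in the summed mesendoderm treatments (0.40).

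The RA response of Efnb1 depended on Bmp in the germ layer experiment and in both starts of the mixed experiment. Across the germ layer conditions it averaged 65.2 ± 19.0 CPM with both plus, 102 ± 40.5 CPM with RA plus and Bmp minus, 75.9 ± 19.5 CPM with RA minus and Bmp plus, and 38.7 ± 8.22 CPM with both minus (SD, n = 8 each). RA plus was thus higher than RA minus where Bmp was inhibited and not where Bmp4 was given. The difference of the RA effects, Bmp plus less Bmp minus, was -1.58 ± 0.20 on the log2 scale (SE, edgeR adjusted p = 5.66e-06). The same difference was -0.99 from the mesendoderm start (edgeR adjusted p = 0.00424) and -1.57 from the undirected start (edgeR adjusted p = 0.00616). With wells of at least 10 cells the undirected value was -1.46 (adjusted p = 0.0538). Over mesendoderm wells the difference was -0.56 ± 0.23 (SE, edgeR adjusted p = 0.3) and was not called.

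**Figure D3:**
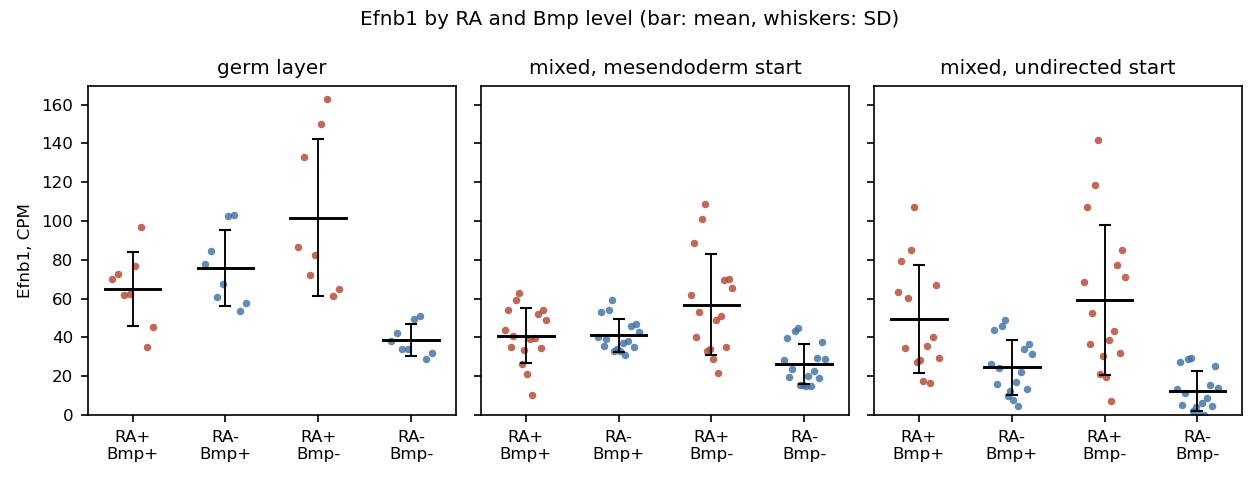
Efnb1 in CPM by the levels of RA (plus in red, minus in blue) and Bmp, in the 32 germ layer conditions and in the wells of each start of the mixed experiment. Bars are means and whiskers SDs; in each panel the points with RA plus and Bmp minus average highest (102, 57.0 and 59.5 CPM) and those with both minus lowest (38.7, 26.1 and 12.2 CPM).

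Efnb2, the ephrin known as a marker of arteries, fell with Wnt. It had 6.24, 11.9 and 16.6 CPM with Wnt plus, against 12.8, 21.4 and 26.8 CPM with Wnt minus in the germ layer experiment, with a log2 change of -0.86 ± 0.11 (SE, edgeR adjusted p = 1.22e-07). Among mixed wells it averaged 5.03 ± 2.49 CPM with Wnt plus and 14.1 ± 5.82 CPM with Wnt minus from the mesendoderm start (SD, n = 32 wells each), a change of -1.48. From the undirected start the change was -1.87. With RA Efnb2 fell in the germ layer experiment by 0.30 on the log2 scale, a call lost with no filter on low counts (adjusted p = 0.0643). Efnb3 was tested in the germ layer experiment and called under none of the 5 signals.

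Among the class 3 semaphorins, 4 of which (Sema3a, Sema3c, Sema3d and Sema3e) lie on chromosome 5, calls with RA were rises and calls with Wnt were falls. Sema3a, the ligand of Nrp1 with plexin-As, had 0.416, 3.65 and 12.1 CPM with RA plus, against 0, 1.42 and 5.94 CPM with RA minus in the germ layer experiment. The log2 change was 1.497 ± 0.29 (SE, edgeR adjusted p = 0.000143), at levels of a few CPM. With Tgfb Sema3a fell by 0.95 on the log2 scale, and that call was lost without the condition described with Epha5 (-0.87, adjusted p = 0.0511) and with pair products in the model (-0.93, adjusted p = 0.055). Sema3c, known from the heart's outflow tract, rose with RA by 0.66 and fell with Wnt by 0.90 on the log2 scale. Sema3e had 4.62, 11.6 and 38.1 CPM with Wnt plus, against 15.2, 30.5 and 50.3 CPM with Wnt minus, a change of -0.95 ± 0.17 (SE, edgeR adjusted p = 6.23e-05). Sema3e fell with Wnt in the mixed experiment too, by 1.22 from the mesendoderm start and 1.52 from the undirected start on the log2 scale. Sema3b rose with Bmp by 0.87 in the germ layer experiment.

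Of the membrane-bound semaphorins tested, Sema6a, a ligand of Plxna2 and Plxna4, was called most often. It had 14.7, 23.1 and 35.6 CPM with Bmp plus, against 16.1, 35.8 and 62.7 CPM with Bmp minus in the germ layer experiment, a log2 change of -0.56 ± 0.14 (SE, edgeR adjusted p = 0.00138). Its Bmp change was -0.98 from the mesendoderm start. With Fgf it rose in both starts, to 18.4 ± 10.3 CPM with Fgf plus against 8.06 ± 5.19 CPM with Fgf minus from the mesendoderm start (SD, n = 32 wells each), a change of 1.11. From the undirected start the Fgf change was 1.20. Sema6a also fell with Wnt in both starts, by 0.59 (mesendoderm) and 0.63 (undirected) on the log2 scale. Sema4b fell with Fgf in both starts by smaller amounts, 0.39 (mesendoderm) and 0.43 (undirected). The undirected call was lost with no filter on low counts (adjusted p = 0.0542) and with wells of at least 10 cells (adjusted p = 0.0817). Sema4c and Sema4d (a ligand of Plxnb1) were tested in the germ layer experiment and not called under any signal.

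Nrp2, a neuropilin best known as the co-receptor of Sema3f, responded to Wnt and Bmp upward and to RA downward in all 3 experiments. Across germ layer conditions it had 22.9, 40.3 and 89.3 CPM with Wnt plus, against 10.1, 18.9 and 49.6 CPM with Wnt minus, a log2 change of 1.14 ± 0.12 (SE, edgeR adjusted p = 4.39e-09). The change was 0.97 from the mesendoderm start, 0.86 from the undirected start and 1.10 over mesendoderm wells, where Nrp2 averaged 113 ± 91.9 CPM with Wnt plus (n = 148) and 49.4 ± 37.1 CPM with Wnt minus (n = 152). Its Bmp change was 0.68 in the germ layer experiment, 0.75 from the mesendoderm start and 0.98 over mesendoderm wells, and was not called from the undirected start. With RA it fell by 0.77 (germ layer), 1.22 (mesendoderm start), 0.64 (undirected start) and 0.75 (mesendoderm wells) on the log2 scale. At the level of mesendoderm wells the shares of all genes called were 21.9% for RA, 39.6% for Wnt, 29.3% for Bmp and 9.28% for Fgf, under which Nrp2 rose by 0.37. Nrp2 was not called there under Tgfb, Notch or Shh, with log2 changes of -0.11, 0.07 and 0.05, where 10.1%, 1.16% and 0.043% of all genes were called.

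Nrp1, the co-receptor of Sema3a and of vascular endothelial growth factor, had RA responses of opposite sign in the germ layer and mesendoderm experiments. With RA plus it had 3.93, 10.5 and 36.9 CPM, against 1.39, 4.40 and 10.6 CPM with RA minus in the germ layer experiment, a log2 change of 1.29 ± 0.20 (SE, edgeR adjusted p = 4.42e-06). In the summed mesendoderm treatments Nrp1 averaged 22.1 ± 21.5 CPM with RA plus and 36.6 ± 19.7 CPM with RA minus (SD, n = 64 each), a change of -0.73 ± 0.15 (SE, edgeR adjusted p = 3.99e-05). The RA change of Nrp1 was called in neither start of the mixed experiment: it was -0.31 ± 0.23 from the mesendoderm start (SE, edgeR adjusted p = 0.318) and 1.09 ± 0.47 from the undirected start (SE, edgeR adjusted p = 0.0617). The difference between these starts was -1.40 ± 0.52 (SE, edgeR adjusted p = 0.0967). The mesendoderm experiment differs from the germ layer experiment in its start and in the added Notch and Shh signals. Its compounds are not named, so whether they differ as well is not known. The difference in RA change between the germ layer and mesendoderm experiments was not tested. Nrp1 fell with Wnt by 0.62 and with Fgf by 0.61 on the log2 scale among germ layer conditions, the Fgf call being lost with DESeq2 (adjusted p = 0.06). With Bmp Nrp1 rose from the mesendoderm start by 1.19 and in the summed treatments by 0.86.

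Of the plexins, Plxna1, with exons that overlap Gm26811 on the other strand, Plxnb1 and Plxnb2 were not called under any signal in the germ layer experiment. Plxna2, a receptor for Sema6a and class 3 semaphorins, was not called there either (RA log2 change 0.73, adjusted p = 0.136). In the mixed experiment Plxna2 averaged 11.3 ± 11.1 CPM with RA plus (n = 30 wells) and 2.34 ± 2.56 CPM with RA minus (n = 32 wells) from the undirected start, a change of 2.32 (edgeR adjusted p = 2.29e-08). It fell with Wnt in both starts, by 1.28 (mesendoderm) and 1.90 (undirected) on the log2 scale. Plxna1 rose with Fgf by 0.25 from the mesendoderm start and 0.29 from the undirected start (edgeR adjusted p = 0.0489). The undirected call was lost with RLE size factors (0.0651), DESeq2 (0.071), no filter (0.105) and pair products (0.124).

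Across experiments, 39 gene and signal pairs were called in the germ layer experiment, and 34 of them were tested again in each start of the mixed experiment. From the mesendoderm start 28 of the 34 had the germ layer sign and 18 of these were called; from the undirected start the numbers were 26 and 15. None of the 34 was called with the opposite sign in either start. In the summed mesendoderm treatments 15 were tested, 13 had the same sign and 8 of these were called, and 1, Nrp1 under RA, was called with the opposite sign. The 3 experiments share no populations, while both starts of the mixed experiment share a library. The same counts were not made over all genes, so whether this agreement is particular to the guidance genes was not tested.

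Pairs of signals gave 17 calls among the members in the germ layer experiment over 10 pairs, 10 positive and 7 negative. The wider model tested 36 members and called 1.42% of all gene and pair combinations. The calls fell on RA with Wnt (6 of 36 members, 3.63% of all genes), RA with Bmp (6 of 36, 3.01%), Wnt with Bmp (3 of 36, 3.87%) and Tgfb with Bmp (2 of 36, 3.01%). For each pair the adjustment ran over all genes tested. The mixed experiment tested 25 members for pairs and gave 14 calls, 2.8% of their combinations (0.506% over all genes). The mesendoderm wells tested only 4 members and gave 3 calls, 3.57% of their combinations (0.822% over all genes).

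For RA with Wnt, 3 receptors had their highest mean in the germ layer experiment with RA plus and Wnt minus. Epha4 averaged 13.7 ± 3.60 CPM with both plus, 40.3 ± 14.9 CPM with RA plus and Wnt minus, 19.4 ± 6.32 CPM with RA minus and Wnt plus, and 21.1 ± 6.02 CPM with both minus (SD, n = 8 each). The RA effect with Wnt plus less that with Wnt minus was -1.38 ± 0.19 (SE, edgeR adjusted p = 4.69e-05). For Epha7 the difference was -2.07 (edgeR adjusted p = 4.5e-05), with 6.77, 14.51, 9.36 and 4.36 CPM in the same order. For Plxna2 it was -1.79 (edgeR adjusted p = 0.0274), with 9.56, 24.8, 10.9 and 7.28 CPM in the same order. From the mesendoderm start of the mixed experiment all 3 differences were negative and called as well: -1.29 for Epha4 (edgeR adjusted p = 5.52e-06), -1.63 for Epha7 (edgeR adjusted p = 5.67e-05) and -1.56 for Plxna2 (edgeR adjusted p = 0.036). The condition means differed there, however: Epha4 and Epha7 were highest with RA minus and Wnt plus (52.8 ± 16.3 and 26.0 ± 9.68 CPM, n = 16 wells), and Plxna2 with RA plus and Wnt minus (20.2 ± 14.9 CPM, n = 16 wells). None of the 3 was called from the undirected start, with differences of -0.64 (Epha4), -0.52 (Epha7) and -0.997 (Plxna2).

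**Figure D4:**
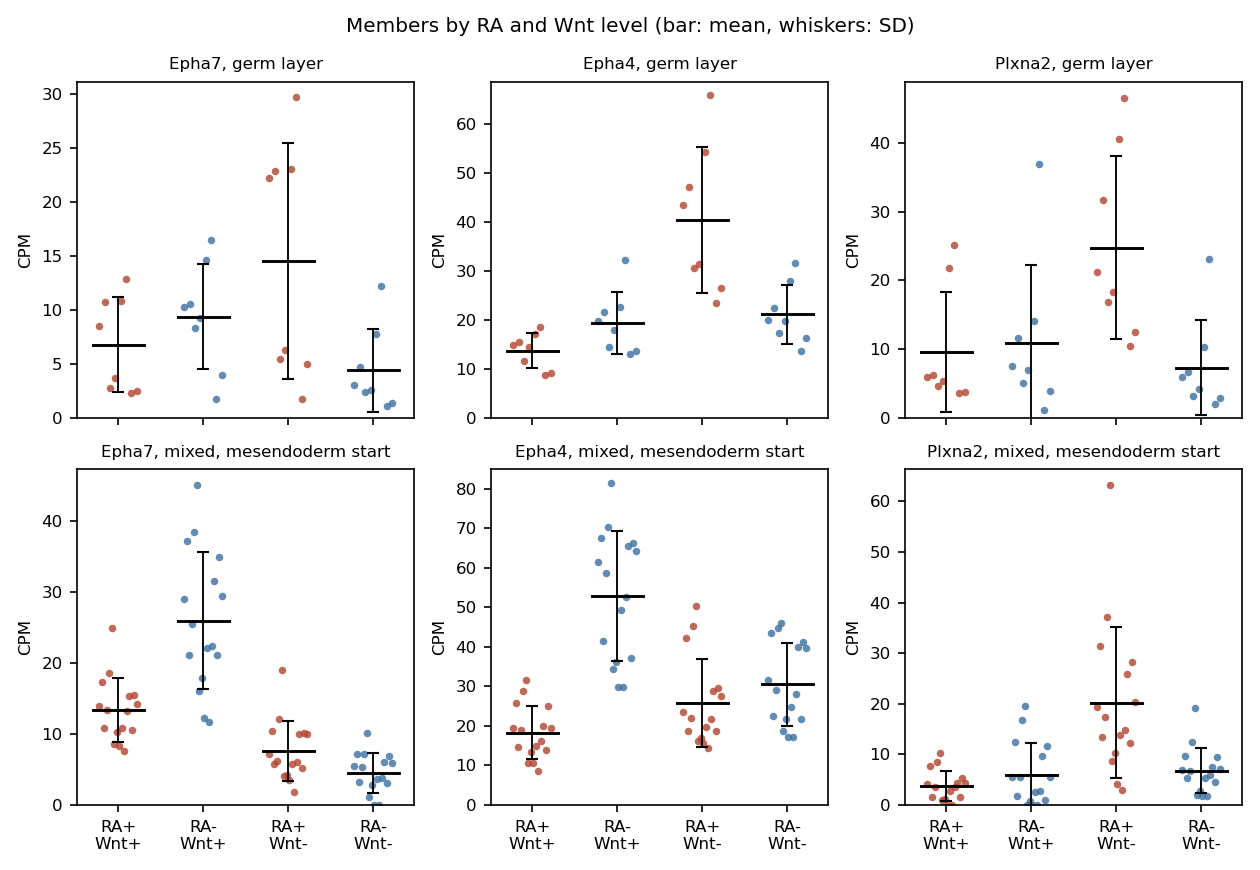
CPM of Epha7, Epha4 and Plxna2 by the levels of RA (plus in red, minus in blue) and Wnt in the germ layer conditions (top, 8 per combination) and in the wells of the mesendoderm start of the mixed experiment (bottom, 16 per combination). Bars are means and whiskers SDs, drawn down to 0 at most; Epha4 averages 40.3 CPM with RA plus and Wnt minus in the germ layer experiment and 52.8 CPM with RA minus and Wnt plus from the mesendoderm start.

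Sema3e differed in the other direction. In the germ layer experiment it averaged 21.5 ± 9.09 CPM with both plus, 28.8 ± 11.5 CPM with RA plus and Wnt minus, 9.82 ± 3.10 CPM with RA minus and Wnt plus, and 31.6 ± 6.82 CPM with both minus (SD, n = 8 each). The RA effect was higher with Wnt plus by 1.304 ± 0.17 (SE, edgeR adjusted p = 2.25e-05), so that the fall with Wnt was deepest where RA receptors were blocked. With Bmp the RA effect on Sema3e differed by -1.05 (edgeR adjusted p = 0.000153). Neither pair of Sema3e was called in the mixed experiment, where RA with Wnt gave 0.30 from the mesendoderm start and -0.25 from the undirected start, and RA with Bmp -0.84 and -1.51.

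Efna5 and Efna1 rose with Bmp by more where RA was plus. Efna5 averaged 68.8 ± 12.4 CPM with RA and Bmp both plus, 23.4 ± 7.17 CPM with RA plus and Bmp minus, 40.7 ± 18.1 CPM with RA minus and Bmp plus, and 23.1 ± 7.70 CPM with both minus (SD, n = 8 each). The difference was 0.83 on the log2 scale (edgeR adjusted p = 0.03). Efna1 averaged 23.0 CPM with both plus, 3.46 CPM with RA plus and Bmp minus, 16.8 CPM with RA minus and Bmp plus, and 6.09 CPM with both minus, a difference of 1.302 (edgeR adjusted p = 0.0406). Without the condition RA+ Wnt+ Tgfb- Bmp- Fgf+ the Efna1 difference was 1.19 (adjusted p = 0.107) and that of Plxna2 for RA with Wnt was -1.73 (adjusted p = 0.0504). Neither gene was called for this pair in the mixed experiment: Efna5 had 0.59 from the mesendoderm start and -0.46 from the undirected start, and Efna1 0.86 and 0.26.

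Neuropilins and Efnb1 had the other named pairs. Nrp2 from the mesendoderm start averaged 130 ± 81.0 CPM with Wnt and Bmp both plus, 53.2 ± 18.9 CPM with Wnt plus and Bmp minus, 48.4 ± 28.2 CPM with Wnt minus and Bmp plus, and 42.7 ± 23.7 CPM with both minus (SD, n = 16 wells each). The Wnt effect was higher with Bmp plus by 1.08 ± 0.18 (SE, edgeR adjusted p = 1.55e-05). Over mesendoderm wells the same difference was 0.83 (edgeR adjusted p = 0.00455), and Nrp2 averaged 159 ± 95.3 CPM with both plus (n = 80) and 40.4 ± 28.8 CPM with both minus (n = 75). It was -0.31 in the germ layer experiment and -0.18 from the undirected start, neither called. Among mesendoderm wells the RA effect on Nrp2 differed by -0.74 with Bmp (edgeR adjusted p = 0.0415). The RA effect on Efnb1 in these wells differed by 1.08 with Tgfb (edgeR adjusted p = 0.00356). Neither was called in the other experiments, where the first lay between -0.67 and -0.35 and the second between 0.596 and 1.51. With wells of at least 10 cells, these 3 mesendoderm values were 0.88, -0.25 and 0.77, at adjusted p = 0.345, 0.93 and 0.717. Nrp1 from the mesendoderm start averaged 17.6 ± 14.8 CPM with Wnt and Fgf both plus, 6.03 ± 3.68 CPM with Wnt plus and Fgf minus, 10.4 ± 7.77 CPM with Wnt minus and Fgf plus, and 23.97 ± 20.97 CPM with both minus. Its Wnt effect differed by 2.58 with Fgf (edgeR adjusted p = 8.38e-06). This difference was 0.94 ± 0.32 over mesendoderm wells (SE, edgeR adjusted p = 0.372), 0.38 in the germ layer experiment and 0.53 from the undirected start, none of them called. The RA effect on Efnb1 from the undirected start differed by 1.64 with Fgf (edgeR adjusted p = 0.00247), against uncalled values of 0.47 in the germ layer experiment, -0.0071 from the mesendoderm start and -0.15 over mesendoderm wells.

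The starts themselves differed in the same families. In treated wells of the mixed experiment 10 of 23 members were higher and 1 lower from the mesendoderm start, where 25.6% of all genes were called. Nrp2 had 6.998, 52.1 and 296 CPM from the mesendoderm start (64 wells), against 0, 21.002 and 101 CPM from the undirected start (62 wells), a log2 difference of 1.08 ± 0.10 (SE, edgeR adjusted p = 3.41e-17). Nrp1 differed by 1.59, Epha7 by 0.89, Efna1 by 0.87 and Efna4 by 0.40. The 1 lower member was Ephb2, by 0.31 on the log2 scale, a call lost with no filter on low counts (adjusted p = 0.0739) and with pair products in the model (adjusted p = 0.077). Of the marker lists, 3 of 7 pluripotency markers and 1 of 2 tested neural ectoderm markers were lower, while 1 of 2 tested neural crest markers and the 1 tested fibroblast feeder marker were higher. The pluripotency markers summed to 789 to 3562 CPM from the mesendoderm start, against 1038 to 4045 CPM from the undirected start. The median well held 38 cells from the mesendoderm start and 19.5 from the undirected start. The part of markers and of well size in these differences was not tested.

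In the control wells, which had no combined treatment, 4 members were higher and 2 lower from the mesendoderm start (8.57% of all genes called). Efnb1 had 25.7, 36.8 and 54.4 CPM in the 8 wells from the mesendoderm start, against 6.48, 10.5 and 17.9 CPM in the 8 wells from the undirected start, and the groups did not overlap. Its log2 difference was 1.77 ± 0.32 (SE, edgeR adjusted p = 1.56e-05). Epha7 had 6.14, 9.17 and 14.0 CPM from the mesendoderm start, against 1.38, 3.88 and 5.72 CPM from the undirected start, also without overlap (1.41, edgeR adjusted p = 0.00742). Nrp2 (0.96) and Nrp1 (2.34) were higher too. Efnb2 had 1.84, 7.61 and 16.3 CPM from the mesendoderm start, against 12.4, 22.2 and 30.8 CPM from the undirected start, and was lower by 1.404 on the log2 scale. Its 8 wells from the mesendoderm start split between 1.84 to 4.22 CPM and 10.99 to 16.3 CPM, and the highest of them overlapped the undirected wells. Sema6a was lower by 0.84, a call lost with DESeq2 (adjusted p = 0.0649). Among markers, 2 of 7 for pluripotency were higher and 2 lower, and 1 of 2 tested each for neural crest and neural ectoderm was lower. These control wells held a median of 55 cells from the mesendoderm start and 35 from the undirected start, and the part of markers and well size was not tested here either.

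Whether a pathway response itself differed between the starts was tested for each pathway, as the change from the mesendoderm start less that from the undirected start. For RA, 2 members differed (5.68% of all genes): Efnb1 by -1.09 ± 0.23 (SE, edgeR adjusted p = 0.000488) and Plxna2 by -1.67 ± 0.44 (SE, edgeR adjusted p = 0.0091), both with the smaller rise from the mesendoderm start. For Wnt, 1 differed (7.77%): Efna5 by -1.09 ± 0.32 (SE, edgeR adjusted p = 0.0191). With products of pathways in the model the values of Plxna2 and Efna5 were -1.49 (adjusted p = 0.1) and -0.95 (adjusted p = 0.0526). For Tgfb, Bmp and Fgf edgeR called 0 members, as did DESeq2, where 0.0%, 0.193% and 1.47% of all genes were called. At an unadjusted p under 0.05 these were 2, 4 and 3 members.

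Epha5, an EphA receptor best known from the nervous system, was high in a single germ layer condition. In RA+ Wnt+ Tgfb- Bmp- Fgf+ it had 79.1 CPM, against 7.49 CPM in the next condition (the same signals with Tgfb plus) and a median of 2.23 CPM over all 32. This ratio of 10.6 to the next condition was the largest of the members; the next largest was 2.96, for Epha10. In that condition 88 of 194 cells had an Epha5 UMI, 45.4% (exact 95% binomial interval 38.2 to 52.6%, which covers counting error only), against 14 of 163 cells, 8.59%, in the next. Epha5 was therefore spread over many cells of that population and not carried by a few. Its neural ectoderm markers summed to 74.2 unscaled CPM, rank 11 of the 32 from the highest, its fibroblast feeder markers to 26.1 (rank 11) and its endothelial markers to 7.19 (rank 12). Its neural crest markers summed to 14.7 (rank 21) and its pluripotency markers to 681 (rank 25), against a median of 917 over the 32 conditions.

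The condition was chosen for its Epha5 value in the germ layer experiment, so that value carries no test, but the other experiments were not used in the choice. The same 5 signal levels ranked first for Epha5 by unscaled CPM in each of them. From the mesendoderm start of the mixed experiment its 2 wells had 46.7 and 39.2 CPM, against 0 to 33.1 CPM with a median of 2.16 CPM in the other 62 treated wells (exact permutation p = 0.000992, the smallest this test can give, two-sided; 0.00149 adjusted over 3 tests). From the undirected start its wells had 16.0 and 10.9 CPM, against 0 to 12.6 CPM in the other 60 treated wells (two-sided exact permutation p = 0.00212, also 0.00212 adjusted). Epha5 was seen there in 5 of its 39 cells (12.8%), with 12 UMIs in all. Larger shares of cells had an Epha5 UMI in RA- Wnt+ Tgfb- Bmp+ Fgf+ (5 of 27, 18.5%) and RA+ Wnt+ Tgfb- Bmp+ Fgf+ (4 of 30, 13.3%). In the mesendoderm experiment the 14 wells of the chosen condition averaged 29.4 CPM, against 6.41 CPM in the other 286 wells, with ranges of 0 to 84.0 and 0 to 82.6 CPM (two-sided permutation p = 6e-05, 0.00018 adjusted). The neighbouring conditions were closer there: the second highest had 16.6 unscaled CPM against 23.5. All 3 permutations moved single wells, although the wells of a condition share its treatment. Their p-values therefore do not take the condition as the unit, and a test by condition was not run.

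**Figure D5:**
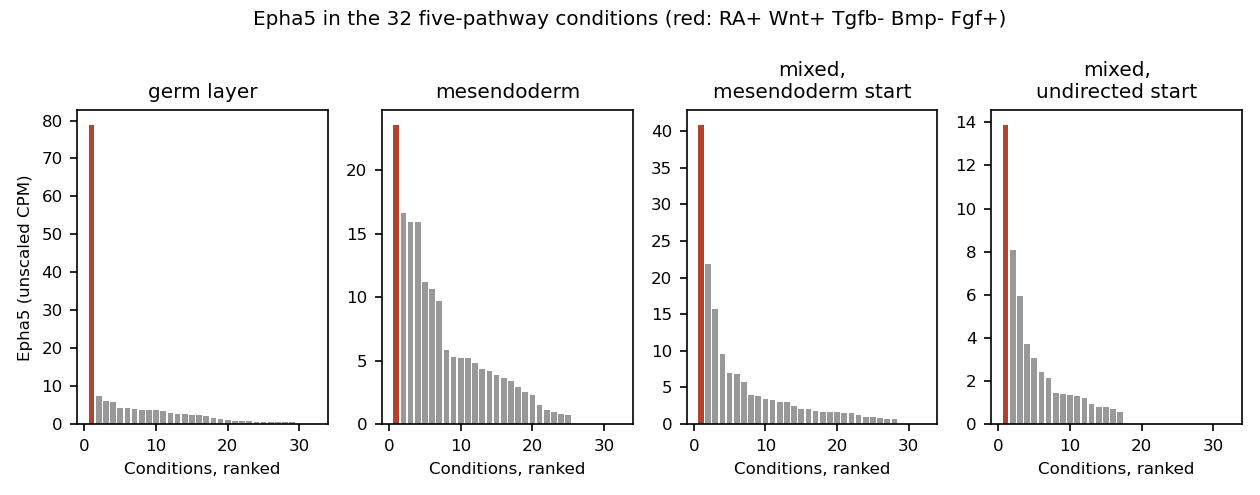
Epha5 unscaled CPM in the 32 combinations of RA, Wnt, Tgfb, Bmp and Fgf levels, ranked from high to low within each experiment (vertical axes differ). The condition RA+ Wnt+ Tgfb- Bmp- Fgf+ (red) ranks first in all 4 panels, at 78.8, 23.5, 40.8 and 13.9 unscaled CPM.

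Other genes of these pathways were counted from lists drawn up by role, with earlier results of these data known. Of 21 tested effectors and partners of Ephs and ephrins, 8 rose and 2 fell with Bmp in the germ layer experiment, where 43.1% of all genes were called, among them Slk (0.68) and Kalrn (1.46), a guanine nucleotide exchange factor. Of 23 tested effectors and partners of semaphorins and plexins, 14 rose and 4 fell with Bmp, led by Rras2 (0.48) and the kinase Limk2 (0.64). Among mixed wells 1 of 18 rose and 1 fell with Bmp from the mesendoderm start (10.7% of all genes called), and 0 rose and 1 fell from the undirected start (7.81%). With Wnt 1 of the 23 rose and 7 fell in the germ layer experiment, led by Crmp1 (-0.62), which relays Sema3a signals, and the kinase Fyn (-0.51), where 23.9% of all genes were called. From the mesendoderm start 0 of 18 rose and 5 fell with Wnt, and from the undirected start 0 rose and 7 fell. These counts stand beside 41.1% (mesendoderm start) and 36.1% (undirected start) of all genes called with Wnt. Of 13 tested genes of a list of other guidance ligands and receptors (netrins, Slits, Robos, repulsive guidance molecules, Flrt and Nogo genes), 5 rose and 2 fell with Bmp in the germ layer experiment. The netrin receptor Unc5b rose by 1.69 and Rgma fell by 1.79 on the log2 scale. With RA 4 of the 13 rose and 3 fell, where 27.7% of all genes were called, with Slit3 down by 1.49 and Rgma up by 0.94. Unc5b rose with Bmp in the mixed experiment too, by 0.98 from the mesendoderm start and 1.15 from the undirected start.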

How the data were processed

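Cells of 3 droplet libraries (10X Chromium, per the labels' protocols) were assigned to wells by barcodelets. The authors deposited whole-number UMI counts per gene and cell and an assignment of each cell to a condition with a pass flag, and the deposited counts were used without normalization. HTSeq 0.9.1, STAR 2.5.2b, Cell Ranger 1.3.1 and the build mm10 are listed in the submitters' processing notes, without their roles. The authors also deposited, per cell, the share (fraction) of barcodelet counts in its leading barcodelets, which was not used further. No source used here states a doublet filter beyond the flag. Bulk libraries of the series were not analysed here.

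Members were matched by symbol, and the members and lists were chosen with earlier results of these data known. Counts of passed cells were summed per condition or well, wells under 5 cells were left out, and CPM were scaled by TMM factors. edgeR 4.0.16 in R 4.3.3 fitted additive pathway effects (its quasi-likelihood test, filterByExpr), with pair products in a second model, and Benjamini-Hochberg adjustment ran over all genes of each comparison at 0.05. The mixed model also held the start and its controls. Alternatives were DESeq2 1.42.0, RLE size factors, no filter, at least 10 cells, pair products and a replicate block. The mesendoderm sums per treatment, and leaving out a population, were added after seeing the data. Permutation tests used scipy 1.17.1. The scripts were tested on simulated data. By the naming rule, up to 5 members each way with the largest called change and a mean of at least 10 CPM were named in each comparison, with the highest member of each family and the called pairs of smallest adjusted p. Members under 10 CPM, among them Sema3a, Sema3b, Epha5, Epha7, Nrp1 and Plxna2, and further members called or not called, were named after their values were seen. Overlapping genes were read from GENCODE vM21, and 47 of 53 members had a RefSeq upstream window.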

Additional observations from a re-analysis of the deposited data

Results flagged for a closer look

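Groups of 8 were checked for outliers: the germ layer conditions behind each called pair, and the control wells of each start for members called there. Of these 80 groups, 3, all of germ layer conditions, had a highest value that stood apart by Dixon's test (critical value 0.526). Chance flags about 1 in 20 such groups, which is more than was seen, and every group was chosen because a member was called. The germ layer conditions of a group are different treatments and not replicates. Plxna2 with RA minus and Wnt plus had 36.95 CPM in the condition with Tgfb plus, Bmp minus and Fgf plus, and the nearest of the other 7 had 14.0 CPM. Plxna2 with RA minus and Wnt minus had 23.11 CPM in the condition with Tgfb minus, Bmp plus and Fgf minus, and the nearest had 10.3 CPM. Epha5 with Tgfb minus and Bmp minus had 79.07 CPM in the condition described above, and the nearest had 6.21 CPM; that condition was chosen for this value, which is given as a description and not as a test.

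In the mixed experiment 3 responses differed between the starts, mesendoderm less undirected, by edgeR's test of the difference. These were Plxna2 under RA (-1.671 on the log2 scale), Efnb1 under RA (-1.085) and Efna5 under Wnt (-1.095).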

How the results depend on the processing

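No call of a member reversed: of the called values under each alternative, 820 kept direction and call and 51 kept direction only, 15 of these with pair products in the model, 9 with DESeq2, 9 with wells of at least 10 cells and 8 with no filter. The replicate block, in which same-numbered wells share a term, kept 95 of 95 calls. In the mixed experiment both starts share that term, so a shift of same-numbered wells within a single start is not fully taken up. Those 95 include no pair calls. Over 1000 genes, deviations of same-numbered wells of different conditions had a mean correlation of 0.147 in the mixed and -0.00241 in the mesendoderm experiment. Pairs of conditions over 0.1 numbered 1155 of 1953 (mixed) and 260 of 3081 (mesendoderm). Same-numbered mixed wells thus tended to deviate together, which was not seen in the mesendoderm experiment. The main fits and the Epha5 permutations did not take the well numbers into account. Counts that moved by over 1.5 times were as follows. With pair products in the germ layer experiment RA had 18 calls and Fgf 7. In the mesendoderm experiment no filter gave 48 calls in all (RA 15, Wnt 18, Tgfb 4, Bmp 9, Fgf 2) and 10 pair calls; treatment sums gave 15 (RA 4, Wnt 5, Tgfb 2, Bmp 3); products gave 11 (RA 3, Wnt 4, Tgfb 1, Bmp 2); at least 10 cells gave 2 for Wnt and 0 pair calls. In the mixed experiment no filter gave 14 (RA), 23 (Wnt) and 5 (Tgfb) from the mesendoderm start, 4 (Bmp) from the undirected start, 12 by start (RA 4, Wnt 4, Tgfb 1, Bmp 1, Fgf 2) and 25 pair calls. Products gave 5 (Tgfb) from the mesendoderm start, 6 (RA) and 1 (Bmp) from the undirected start, and 1 by start (RA 1, Wnt 0). More members are tested without a filter; the cause of the other moves was not tested. Without the condition RA+ Wnt+ Tgfb- Bmp- Fgf+, 49 germ layer calls stayed and 7 were lost, among them Sema3a under Tgfb (-0.87, adjusted p = 0.0511), Efna3 under Bmp (-0.28, 0.0776), Plxna2 under RA with Wnt (-1.73, 0.0504) and Epha5 under Tgfb with Bmp (1.87, 0.137). Depth limits the mesendoderm wells most, where 1 member passed the filter.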

Other observations

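Guidance genes outside the ephrin and semaphorin families also differed between the starts of the mixed experiment. In control wells the netrin Ntn1 was higher from the mesendoderm start by 3.85 on the log2 scale (edgeR adjusted p = 1.82e-07) and the netrin receptor Unc5c by 3.37 (edgeR adjusted p = 0.00311), and 4 of the 10 tested genes of the list of other guidance ligands and receptors were higher and 0 lower, where 8.57% of all genes were called. Crmp1, an intracellular relay of Sema3a signals, was lower by 1.89 on the log2 scale (edgeR adjusted p = 2.63e-10). The Wnt response of Ntn1 differed by -1.82 between the mesendoderm and undirected starts (edgeR adjusted p = 0.000702), and from the undirected start Ntn1 rose with Wnt by 2.09. Rgma, a repulsive guidance molecule, rose with RA in both starts, by 1.56 (mesendoderm) and 1.73 (undirected).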
